A study of Mus musculus with 6 samples.

Results

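Dio1 and Dio3, genes of 2 thyroid hormone deiodinases, were examined for every listed BMAL1 ChIP-seq peak whose summit lay inside the gene or within 100 kb of either end. In chromatin immunoprecipitation sequencing (ChIP-seq), DNA held by an antibody's target is recovered and sequenced, and places with an excess of reads are called as peaks. Retinas of C57BL/6 mice gave 6 libraries with a rabbit antibody to BMAL1: control 1 to 3 are wild type, and Bmal1 CKO 1 to 3, read here as conditional knockouts, carry that label. All mice were untreated and weaned at postnatal day 20. The labels name no Cre driver, deleted cell type, age or time of day, and a peak list gives no expression by which the tissue or the loss of Bmal1 could be checked. The design text speaks of 3 mice of each genotype, and how many retinas went into a library is not given. The Dio1 window (mm10 chromosome 4, gene at 107291465 to 107307168, minus strand) spanned 216 kb and held 42 peaks. The Dio3 window (chromosome 12, gene at 110279230 to 110281097, plus strand) spanned 202 kb and held 25. These 67 were among 320474 peaks in all lists. Exon positions were not used here, so places inside a gene are given by distance from its start site.

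Thyroid hormone is released by the thyroid mainly as the weakly active T4, and deiodinases adjust its activity in tissues by removing iodine. The enzyme from Dio1 can both activate and inactivate the hormone and is best known from liver and kidney, whereas that from Dio3 only inactivates it. In the retina the active hormone, T3, acts through the receptor made from Thrb to favour the M opsin of cones over the S opsin, and loss of Dio3 in mice is known to cost cones. Both genes encode selenoproteins, and Dio3, a gene without introns, lies in an imprinted domain. BMAL1 pairs with CLOCK and binds the E-box CACGTG. The study's title ties Bmal1 to thyroid hormone and cone identity, and these windows show where the antibody's signal was called around 2 genes of that pathway.

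All but 2 lists were short, and all window peaks came from the long ones. Control 1 listed 179475 peaks and Bmal1 CKO 2 listed 138254, while control 2, control 3, Bmal1 CKO 1 and Bmal1 CKO 3 listed 372 to 1444. The genome-wide background recovered from the deposited values, taken here as a measure of relative depth, was 3.46 fragments per base for control 1 and 5.83 for Bmal1 CKO 2. It was 2.78 for Bmal1 CKO 1 and 0.560 to 0.852 for the remaining 3 libraries. The long lists belong to different genotypes, so each genotype has 1 library with listed peaks at these genes.

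The start regions of both genes are shown because control 1 listed a peak at each gene's start end, at different distances, and that of Ndc1, a neighbour of Dio1 that encodes a nuclear pore protein, because the window's highest fold in both long lists lay there. Sequences are RefSeq's for GRCm38.p6, from 250 bases before to 50 after the start site, 5′ to 3′. For Dio1 (chr4:107307119-107307418, minus strand) capitals mark the 117 bases inside the control 1 peak. For Dio3 (chr12:110278980-110279279, plus strand) they mark TATAAA, the letters of a TATA box. For Ndc1 (chr4:107367797-107368096, plus strand), which lies wholly inside a peak in both long lists, they mark CANNTG, the general form of an E-box.
Dio1: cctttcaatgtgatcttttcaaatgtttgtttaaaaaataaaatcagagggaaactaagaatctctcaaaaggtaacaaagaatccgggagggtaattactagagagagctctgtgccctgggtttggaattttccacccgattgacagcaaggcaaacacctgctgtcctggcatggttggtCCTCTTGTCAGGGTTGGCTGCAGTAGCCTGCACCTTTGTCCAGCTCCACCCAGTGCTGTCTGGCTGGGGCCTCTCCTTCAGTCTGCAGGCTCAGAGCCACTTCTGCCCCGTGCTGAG
Dio3: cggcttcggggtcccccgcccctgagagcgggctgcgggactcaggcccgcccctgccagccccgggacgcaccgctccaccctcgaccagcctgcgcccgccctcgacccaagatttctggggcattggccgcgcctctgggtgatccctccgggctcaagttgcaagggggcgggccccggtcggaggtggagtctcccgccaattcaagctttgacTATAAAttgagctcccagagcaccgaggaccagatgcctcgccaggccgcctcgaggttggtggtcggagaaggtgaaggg
Ndc1: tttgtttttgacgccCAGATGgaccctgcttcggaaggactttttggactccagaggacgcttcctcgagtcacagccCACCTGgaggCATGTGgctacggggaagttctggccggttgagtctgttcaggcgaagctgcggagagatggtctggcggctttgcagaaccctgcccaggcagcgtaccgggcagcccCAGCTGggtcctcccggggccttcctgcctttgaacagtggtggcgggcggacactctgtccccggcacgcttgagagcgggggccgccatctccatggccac

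None of the 3 windows held CACGTG, which 7.84% of 21263 promoter windows of protein-coding genes held (both strands). CANNTG, of which CACGTG is a special case, was found in 69.0% of them. It began 231 and 92 bases before the start site in Dio1, both outside the peak, at 1 base before it in Dio3, and at 4 places in Ndc1. The Dio1 window holds only 117 bases of the 416 bp peak. The rest of that peak, with its summit 63 bp past the start site, was not searched, nor was the Dio3 peak. TATAAA began 31 bases before the start site of Dio3, was not found in the windows of Dio1 and Ndc1, and was present in 12.6% of all windows. These are matches of letters in 300 bases and show no binding.

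At Dio1, control 1 listed a peak over the start site and Bmal1 CKO 2 did not. The control 1 peak ran from 107306820 to 107307235, with its summit at 107307105, 63 bp inside the gene. Its fold enrichment, the authors' ratio of signal at the summit to the local background used for that library, was 3.44, with a −log10 q-value of 6.70. None of the other 5 libraries listed a summit within 1 kb of either Dio1 end, the distance that defines an end peak throughout. An end peak of this kind was called at 69.5% of 21887 protein-coding genes in control 1, at 58.9% in Bmal1 CKO 2, at 54.7% in both, and at 14.9% in control 1 without Bmal1 CKO 2, the class that Dio1 and Dio3 fell in. With 1 library per genotype listing peaks here, this difference has no replicate check.

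Inside Dio1 each long list had a further peak, at different places. Control 1 had a fold of 2.64 at 107305702, 1466 bp past the start site. Bmal1 CKO 2 had a fold of 2.60 at 107293772, which is 13396 bp past the start site, toward the 3′ end. The nearest place called in both lists lay upstream, between Dio1 and Yipf1, a gene of a Golgi membrane protein. There control 1 had a fold of 3.77 at 107312733, 5565 bp upstream of the Dio1 start site, and Bmal1 CKO 2 a fold of 2.28 at 107312801, 68 bp away. Within 10 kb of Dio1, control 1 also listed a fold of 2.77 at 107286446, beyond the 3′ end, and 2.47 at 107314411 at the start of Yipf1. Bmal1 CKO 2 had its own peak at the Yipf1 start, with a fold of 2.38 at 107314827, which did not overlap that of control 1. Thus 5 control 1 peaks and 3 Bmal1 CKO 2 peaks lay in Dio1 or within 10 kb, and 1 place was shared.

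**Figure D1:**
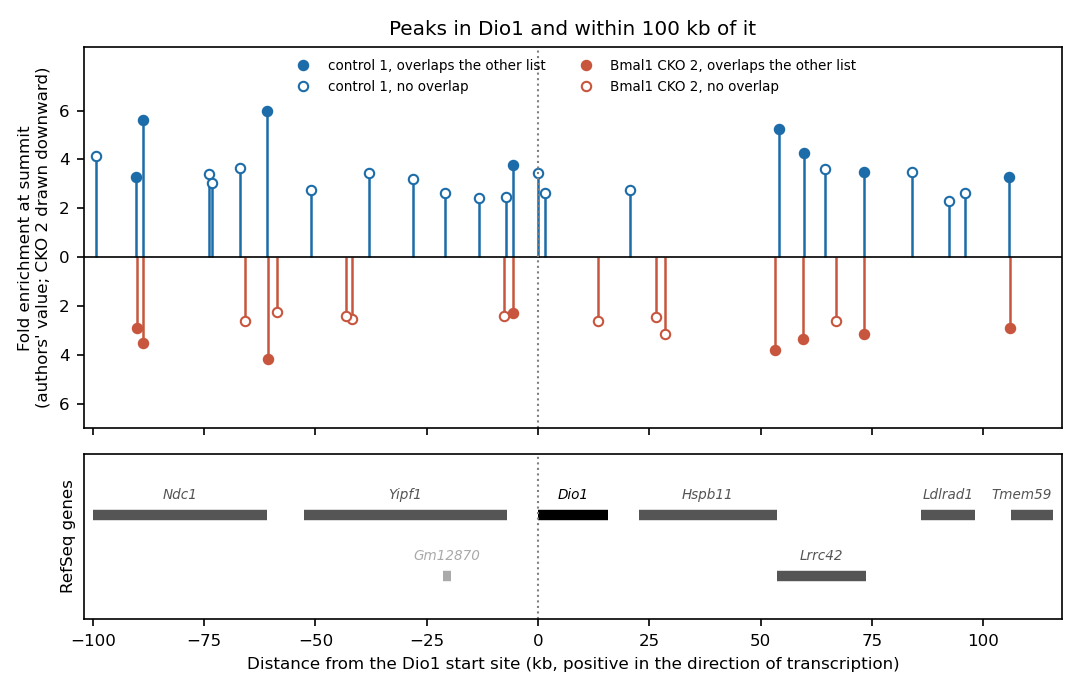
Fold enrichment at each summit (vertical axis, control 1 upward, Bmal1 CKO 2 downward) against distance from the Dio1 start site in kb, with RefSeq genes below. Filled points overlap a peak of the other long list: 8 places are shared, none of them inside Dio1, and the highest folds of both lists lie at Ndc1 and at the start of Lrrc42 and Hspb11.

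At Dio3, control 1 listed 1 weak peak and Bmal1 CKO 2 listed none within 10 kb. The control 1 peak ran from 110279638 to 110279866, with its summit 517 bp past the start site, inside the gene and beyond the sequence shown. Its fold was 2.25 and its −log10 q-value 2.70. Among the 15216 protein-coding genes with an end peak in control 1, only 1.31% had a lower highest end fold, where the Dio1 value stood above 34.5% (median 3.93). The summit nearest to Dio3 in Bmal1 CKO 2 lay 21.0 kb past the gene, at 110302115. Neither long list had a peak within 1 kb of an end of Dio3os, the antisense transcript 1.16 kb from Dio3, or of Mir1247, the microRNA gene beside it.

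**Figure D2:**
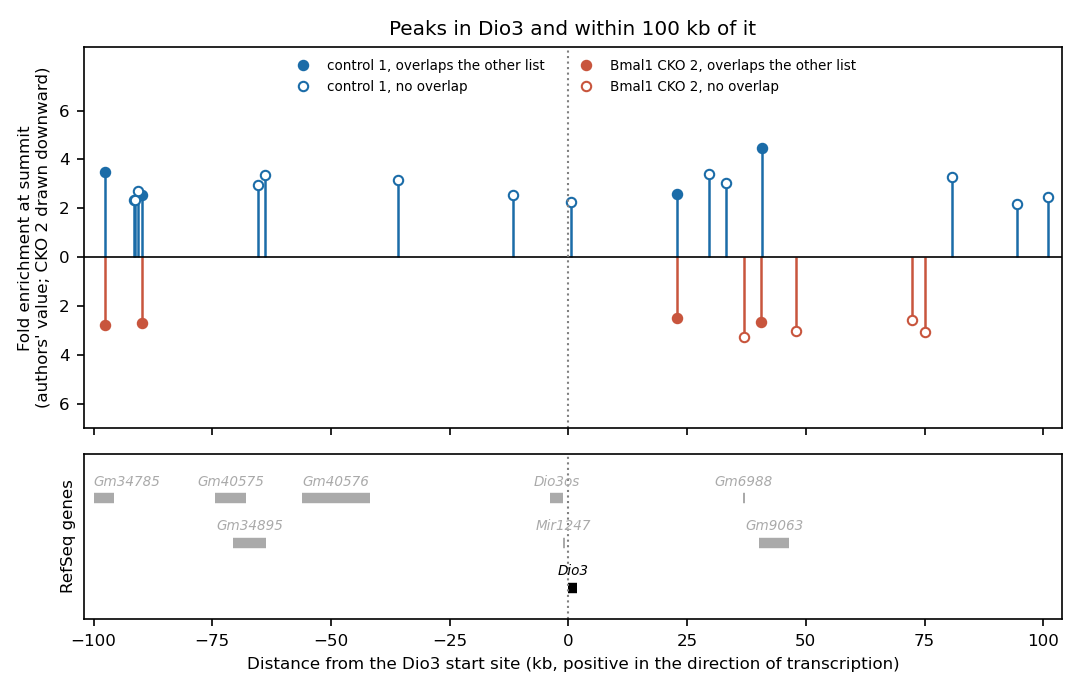
Fold enrichment at each summit (vertical axis, control 1 upward, Bmal1 CKO 2 downward) against distance from the Dio3 start site in kb, with RefSeq genes below. Dio3 carries a single control 1 peak with a fold of 2.25, and the 4 places called in both lists lie more than 20 kb from it.

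The promoter windows of the pair differ in base composition. Dio3 lacked a peak in a window of a kind that mostly had one, and Dio1 had a control 1 peak in a window of a kind that mostly had none. Dio3 had 25 CpG dinucleotides in its 300 bases and a GC content of 69.0%, and Dio1 had 3 and 49.7%, where the median window had 13 and 56.3%. A control 1 peak overlapped 56.7% of all 21263 windows and a Bmal1 CKO 2 peak 46.2%. Among 2173 windows within 2 CpG of Dio3 these shares were 90.8% and 77.9%, and 7.50% had a peak in neither list, as Dio3 had. Among 5891 windows within 2 CpG of Dio1 the shares were 12.5% and 8.88%, and 7.18% had a peak in control 1 alone, as Dio1 had. In Bmal1 CKO 2 the Dio1 window had no peak, like most windows of its composition. This is a description of 2 genes beside the rest, with no test.

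**Figure D3:**
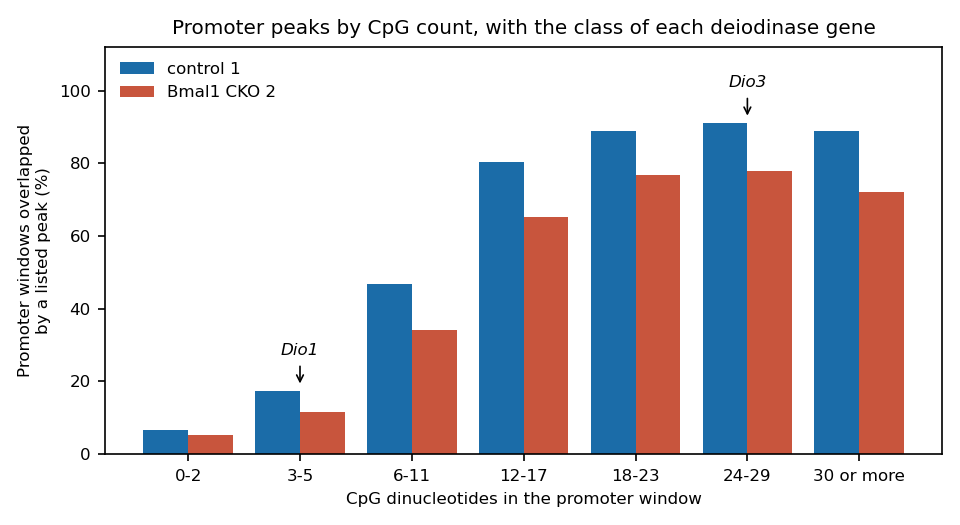
Share of promoter windows of protein-coding genes that overlap a listed peak (vertical axis, %), by the number of CpG dinucleotides in the 300 bp window (horizontal axis), in control 1 and Bmal1 CKO 2. Arrows mark the classes of Dio1, where 17.3% and 11.5% of windows had a peak, and Dio3, where 91.0% and 77.9% had one.

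Fold is a ratio, and the low fold at Dio3 stood over a high local background. Over a higher background a peak needs more fragments to be listed, so the fragment counts of listed peaks are partly set by the listing. From each deposited fold and p-value, the count of fragments piled up on the summit and the local background were worked out. At the Dio1 start, control 1 had 31 stacked fragments over a background of 8.30 per base. At Dio3 it had 27 over 11.4, a background higher than at 97.4% of all control 1 peaks and 3.31 times the genome-wide level, while 82.4% of all its peaks had fewer fragments. The second control 1 peak in Dio1 had 26 over 9.24, and the Bmal1 CKO 2 peak in Dio1 had 30 over 10.9, 1.87 times that library's genome-wide level. The medians over all peaks were 20 fragments over 4.36 in control 1 and 23 over 6.54 in Bmal1 CKO 2.

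**Figure D4:**
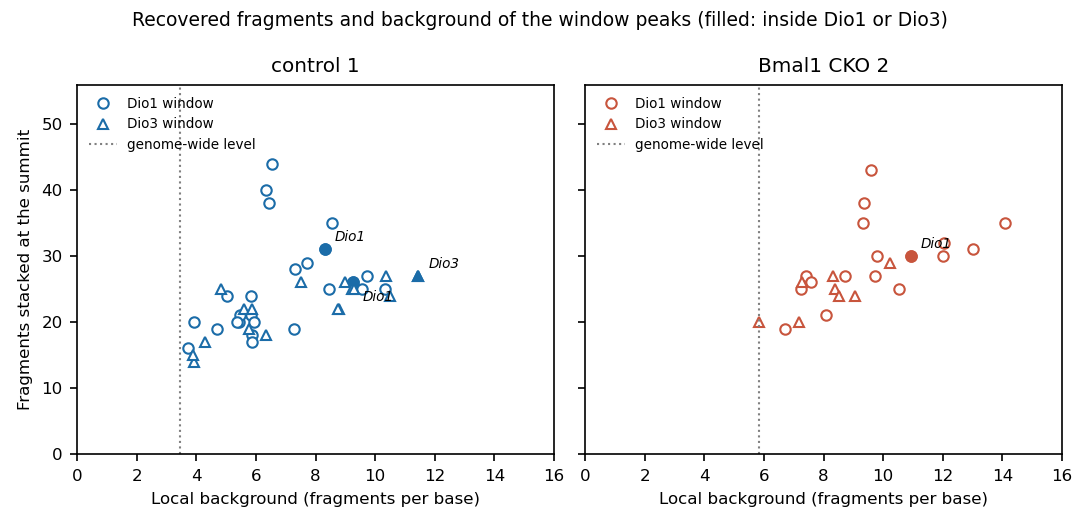
Fragments stacked at the summit (vertical axis) against local background in fragments per base (horizontal axis) for the 67 window peaks, circles for the Dio1 and triangles for the Dio3 window, with the genome-wide level as a dotted line. Filled points lie inside Dio1 or Dio3: they had 26 to 31 fragments, and the Dio3 point has the highest background of all control 1 points.

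The same numbers show what the other libraries could have listed. Scaled by the genome-wide levels to the depth of Bmal1 CKO 2, the Dio1 start peak of control 1 would have a −log10 p-value of 15.0 and the Dio3 peak one of 6.97, both above the lowest listed there, 2.87. All 25 control 1 peaks of the Dio1 window and all 17 of the Dio3 window would be above it too. Of these, 8 and 4 overlapped a listed Bmal1 CKO 2 peak, so passing that value without being listed was common. In the other direction, all 17 Bmal1 CKO 2 peaks around Dio1 and all 8 around Dio3, scaled to control 1, would be above its lowest, 2.76. Of these, too, 8 and 4 overlapped a peak of the other list. The Bmal1 CKO 2 peak inside Dio1 would have 4.22 and was not listed in control 1. In each direction the scaled peaks were picked because 1 list held them. Scaled to Bmal1 CKO 1, the Dio1 start peak of control 1 would have 7.91, above that list's lowest of 5.45, and the Dio3 peak of control 1 3.92, below it. Scaled to control 2, control 3 and Bmal1 CKO 3, the values were 1.58 to 3.31, below the lowest listed values of 5.05 to 6.76. At those depths an enrichment of the size seen in control 1 would not have reached any listed p-value, so the lack of a peak at either gene in those 3 libraries is not a measured absence. By this scaling the start peak of Dio1, but not the peak of Dio3, could have been listed in Bmal1 CKO 1, and it was not. Bmal1 CKO 1 listed 1444 peaks in all, against 179475 in control 1, at backgrounds of 2.78 and 3.46. Its lack of a listed peak is thus not particular to Dio1. The scaling assumes that fragments and background change in proportion with depth. It also takes the genome-wide background as the depth of each library, although whether an input library was used is not stated.

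Across the whole Dio1 window, control 1 listed 25 peaks and Bmal1 CKO 2 listed 17, and 8 places were called in both. Folds ran from 2.30 to 5.97 (median 3.41) in control 1 and from 2.25 to 4.16 (median 2.61) in Bmal1 CKO 2, each relative to the background used for its own library. The highest lay at the start of Ndc1, with 5.97 and 4.16 at summits 232 bp apart. Next in Bmal1 CKO 2, and after a peak inside Ndc1 in control 1, came the shared start region of Lrrc42 and Hspb11, which are transcribed away from each other. Lrrc42 encodes a protein with leucine-rich repeats and Hspb11 a subunit of intraflagellar transport, the transport along cilia. That region had folds of 5.26 and 3.77. The peak inside Ndc1 had 5.60 and 3.49 at summits 12 bp apart. A peak inside Lrrc42 had 4.27 and 3.33, and the list of 5 was completed by 4.15 inside Ndc1 in control 1, with no overlap, and 3.16 at the 3′ end of Lrrc42 in Bmal1 CKO 2.

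Recurring peaks of this window lay both at gene ends and away from them. Of the 7 control 1 peaks within 1 kb of the end of any annotated gene, 4 overlapped a Bmal1 CKO 2 peak, and of the 18 others, 4 did. The recurring end peaks lay at Ndc1, at Lrrc42 and Hspb11, at the 3′ end of Lrrc42 and at the 3′ end of Tmem59, a gene of a membrane protein. The 3 that did not recur lay at Dio1, at Yipf1 and at the pseudogene Gm12870. Ldlrad1, a gene of a protein with a receptor-type repeat, had 2 peaks inside it in control 1, with folds of 2.61 and 2.30, and none in Bmal1 CKO 2. No test was made on these small counts.

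The Dio3 window has no other protein-coding gene, and its peaks were fewer, with lower highest folds in both long lists. Control 1 listed 17 and Bmal1 CKO 2 listed 8, with 4 places in both. Folds ran from 2.18 to 4.47 (median 2.71) in control 1 and from 2.49 to 3.26 (median 2.72) in Bmal1 CKO 2. The highest in control 1 lay in the pseudogene Gm9063, 38.4 kb from Dio3, with 4.47, where Bmal1 CKO 2 had 2.63 at a summit 269 bp away. In Bmal1 CKO 2 the highest, 3.26, lay in the pseudogene Gm6988, 34.8 kb from Dio3, with no control 1 peak. Reads at a pseudogene can stem from a near-identical copy, and how such reads were placed is not given in the sources used here. The next control 1 folds were 3.48 in the lncRNA gene Gm34785, 3.40 at 110308905 between genes, 3.35 at an end of the lncRNA gene Gm34895 and 3.27 at 110359936. In Bmal1 CKO 2 they were 3.07 and 3.00 between genes past Gm9063, 2.77 in Gm34785 and 2.67 at 110189467 beside it. The other 2 shared places lay outside genes, with folds of 2.54 and 2.67 near Gm34785 and 2.59 and 2.49 at about 23 kb past the Dio3 start site. The lncRNA genes Gm40575 and Gm40576 had no peak inside them or at an end.

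The genotypes could not be separated by the number of window peaks. In the Dio1 window the libraries held 25, 0 and 0 peaks in controls 1 to 3 and 0, 17 and 0 in Bmal1 CKO 1 to 3, means of 8.33 ± 14.4 and 5.67 ± 9.81 (SD, n = 3 each). In the Dio3 window they held 17, 0 and 0 and 0, 8 and 0, means of 5.67 ± 9.81 and 2.67 ± 4.62 (SD, n = 3 each). The groups overlapped at 0 in both windows. The CKO mean was lower by 2.67 and by 3.00 peaks (CKO minus control −2.67 and −3.00), with an exact two-sided permutation p of 1.0 for each (adjusted p = 1.0 over the 2 windows). With 1 long list in each group and 0 elsewhere the p is 1.0 whatever the counts, so the test bears on neither difference nor likeness. Without control 1 the differences turned to 5.67 and 2.67. Without Bmal1 CKO 1 or Bmal1 CKO 3 they were 0.167 and −1.67, without Bmal1 CKO 2 −8.33 and −5.67, and without control 2 or control 3 −6.83 and −5.83.

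The excess in control 1 was smaller at equal list length. When its list was reduced to the 138254 peaks with the highest −log10 p-value, the length of the Bmal1 CKO 2 list, the Dio1 window kept 20 control 1 peaks against 17, and the Dio3 window 8 against 8. The Dio1 start peak was among those kept and the Dio3 peak was not. This alternative was chosen after seeing the data.

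Recurrence between the long lists was on the low side of other windows, with counting intervals that include the share over all peaks. Of the 25 control 1 peaks in the Dio1 window, 8 (32.0%, 95% Wilson interval 17.2 to 51.6) overlapped a Bmal1 CKO 2 peak by at least 1 bp, and of the 17 in the Dio3 window, 4 (23.5%, 9.56 to 47.3). Over all control 1 peaks the share was 40.7%, inside both intervals. Seen from Bmal1 CKO 2, 8 of 17 (47.1%, 26.2 to 69.0) and 4 of 8 (50%, 21.5 to 78.5) overlapped a control 1 peak, against 54.1% of all its peaks. The intervals cover counting error only. Among gene windows with at least 1 peak in the list concerned, the median share was 40% for control 1, with 28.2% of windows below Dio1 and 10.9% below Dio3, and 60% for Bmal1 CKO 2, with 19.6% and 21.9% below. Summits of shared places were 12 to 891 bp apart at Dio1 (median 87) and 27 to 269 bp at Dio3 (median 33.5).

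Shared places stood out by fold around Dio1. Their median fold in control 1 was 4.02 against 3.03 for its other peaks there, and in Bmal1 CKO 2 3.24 against 2.53. Over all peaks the medians were 3.83 and 3.35 in control 1 and 3.07 and 2.93 in Bmal1 CKO 2. In the Dio3 window they were 3.04 and 2.71 in control 1 and 2.65 and 3.04 in Bmal1 CKO 2, so there the order differed between the lists. Counts of 4 to 17 peaks lie behind each of these medians.

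Set beside the windows of all 21887 protein-coding genes, built the same way, the Dio1 window was somewhat dense in peaks and the Dio3 window sparse. Dio1 had 11.6 peaks per 100 kb in control 1 and 7.88 in Bmal1 CKO 2, above 71.4% and 70.4% of windows. Dio3 had 8.42 and 3.96, above 35.2% and 18.3%. The medians were 9.77 and 6.41. Control 1 exceeded Bmal1 CKO 2 by 3.71 per 100 kb around Dio1 and 4.46 around Dio3, where the median window had 2.75 and the middle 90% ran from −1.51 to 7.81. An excess of this size in control 1 was thus common. Windows of neighbouring genes share peaks and are not independent.

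**Figure D5:**
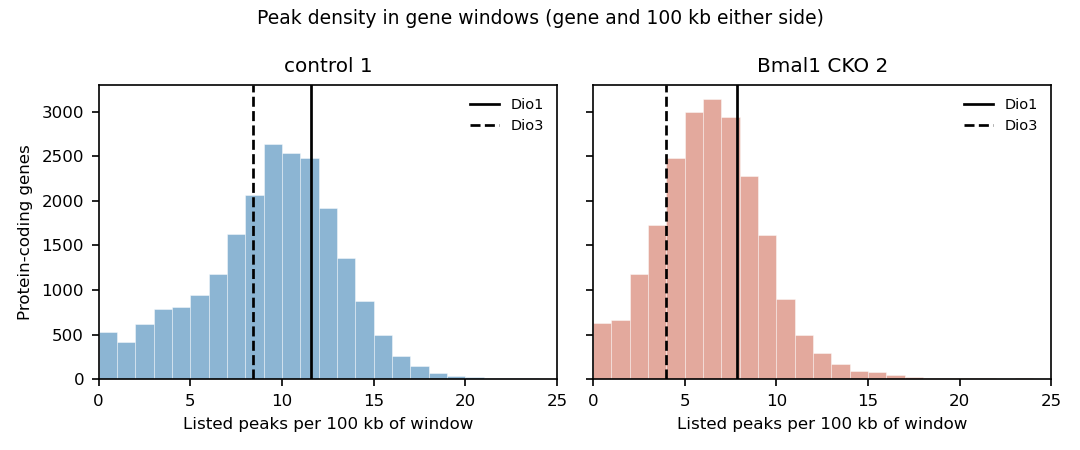
Number of protein-coding genes (vertical axis) by listed peaks per 100 kb in the gene and 100 kb either side (horizontal axis), for control 1 and Bmal1 CKO 2. The Dio1 line lies at 11.6 and 7.88, above the medians of 9.77 and 6.41, and the Dio3 line at 8.42 and 3.96, below them.

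The short lists had nothing near either gene, as was usual for them. Control 2, control 3 and Bmal1 CKO 3 had a peak in 3.02% to 4.15% of all gene windows and Bmal1 CKO 1 in 7.08%, against 98.4% in control 1 and 98.2% in Bmal1 CKO 2. Their nearest peak to Dio1 lay 11.2 Mb away, at the same place in all 4 lists (summits 118548222 to 118548255 on chromosome 4). Around Dio3 the nearest lay 4.84 Mb away in control 2, control 3 and Bmal1 CKO 3, again at a shared place, and 3.14 Mb away in Bmal1 CKO 1. Scaled to the depth of Bmal1 CKO 1, 15 of the 25 control 1 peaks around Dio1 and 4 of the 17 around Dio3 would reach that list's lowest −log10 p-value, and 3 of 17 and 0 of 8 from Bmal1 CKO 2. None was listed. Scaled to the other 3 short lists, at most 1 peak of either window would reach the lowest listed value. The same share over all control 1 peaks was not computed. Bmal1 CKO 1 listed 1444 peaks in all, against 179475 in control 1, so the lack is not particular to these windows.

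Other genes shared the listing pattern of the pair. A total of 3247 genes outside the Dio1 window had an end peak in control 1 alone, and 3249 outside the Dio3 window. By the Euclidean distance over 6 libraries of log2(1 + peaks in the gene and 100 kb either side), the genes most like Dio1 were Slfn5, Plekhs1 and Lamb2, each at a distance of 0 with 25 and 17 peaks in the long lists and end folds of 3.58, 3.00 and 2.78. Those most like Dio3 were Aym1, Plekhj1 and Foxe3, each at a distance of 0 with 17 and 8 peaks and end folds of 2.45, 2.59 and 3.25. A likeness over libraries of which 4 are empty rests on 2 counts.

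Of the 3 deiodinase genes, Dio2, whose enzyme activates the hormone, was the one with an end peak in both long lists, with folds of 6.77 and 3.34. No peak of either long list overlapped the promoter window of Dio2, so these end peaks lay outside that window. All 3 deiodinase genes had an end peak in control 1. A list of 12 genes covered carriers, transporters, receptors and response genes of the hormone. Control 1 had end peaks at 8 of them and Bmal1 CKO 2 at 6 of those 8, near the shares of all genes, 69.5% and 58.9%. The highest control 1 folds were 5.78 at Slc16a10, a transporter gene, 3.70 at the receptor gene Thrb and 3.47 at Rxrg, which encodes a partner receptor, with 3.60, 3.39 and 2.82 in Bmal1 CKO 2. The median end fold of the list was 3.30 and 3.11, where that of all genes was 3.93 and 3.10.

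Of 7 genes for selenoprotein synthesis, 6 had end peaks in both long lists, as 54.7% of all genes had, and Trnau1ap had one in neither. The promoter window of Trnau1ap was nevertheless overlapped by a peak in both, over 219 bases in control 1 and 115 in Bmal1 CKO 2. Pstk, whose kinase acts on the transfer RNA for selenocysteine, had 7.28 and 5.58, Sepsecs, which completes that amino acid, 5.18 and 4.03, and the elongation factor gene Eefsec 4.14 and 3.09. Among 11 other selenoprotein genes, control 1 had end peaks at all 11 and Bmal1 CKO 2 at 9, so 9 had them in both. The lists are short beside shares of 69.5% and 58.9% over all genes, and no test was made. Folds in control 1 reached 5.08 at Selenot, 4.78 at Selenok and 4.10 at the thioredoxin reductase gene Txnrd3, with 4.59, 3.73 and 2.88 in Bmal1 CKO 2. Txnrd1 and Selenop, which encodes the selenium carrier of plasma, had an end peak in control 1 alone, as Dio1 and Dio3 did.

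In a list of 9 genes in and beside the imprinted domain around Dio3, 3 had end peaks in control 1, and 2 of those 3 in Bmal1 CKO 2. The shares over protein-coding genes were 69.5% and 58.9%. The 3 genes were Ppp2r5c, a phosphatase subunit gene past Dio3, with 3.19 and 2.23, the noncoding gene Mirg with 2.74 and 2.63, and Dio3 itself in control 1. The paternally expressed genes Dlk1 and Rtl1, the maternally expressed Meg3 and Rian, Dio3os and Begain had none, and Begain had no peak within 10 kb in either list. Meg3 had 7 and 2 peaks in the gene or within 10 kb, Dlk1 3 and 0, and Rtl1, which overlaps Meg3, 5 and 1. Rian went the other way, with 2 in control 1 and 3 in Bmal1 CKO 2. RefSeq gave 14 promoter windows for 8 of these genes, 5 of them at Begain. A control 1 peak overlapped 1 of the 14, at Ppp2r5c, and a Bmal1 CKO 2 peak 0, beside 56.7% and 46.2% of windows of protein-coding genes. Of the 14 windows, 8 had at least 24 CpG, among them Dio3 with 25 and Dio3os with 53, and these are the classes in which 88.8% to 91.0% of protein-coding windows had a control 1 peak and 72.2% to 77.9% a Bmal1 CKO 2 peak. Several windows share a gene and the list holds noncoding genes, so this is a description with no test.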

How the data were processed

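The data are 1 narrowPeak list per library, assigned to libraries by the series record, whose replicate numbers differ from those in the list names. Per the submitters' processing notes, Trim Galore, Bowtie2 and MACS2 were used with mm10. Their versions and settings, and whether an input library was used, are not stated in the labels or lists. The authors deposited per peak a fold enrichment (a ratio), a −log10 p-value and −log10 q-value, and a score, which was checked to be the −log10 q-value times 10, cut to a whole number. Gene positions and promoter sequences came from RefSeq for GRCm38.p6, which shares its coordinates with mm10, and 21887 nuclear protein-coding genes and all genes of the 5 lists were found there. Summits were assigned to windows, and peaks overlapped by at least 1 bp, with pandas 2.3.3 and NumPy 2.4.6. Tests used SciPy 1.17.1 (exact two-sided permutation over 20 assignments, smallest p 0.10). Fragments and background were solved from fold (pseudocount 1) and Poisson p-value, for up to 3000 peaks per library, all window peaks and all peaks of the long lists. The background level is the lowest repeated value. A whole number of fragments met the p-value within 0.005 in 100.0% of the peaks drawn, and the method was tested on simulated data. The peak lists hold no read totals. Named were the members, all genes of both windows, the 3 list genes with the highest control 1 end fold, the 3 most alike genes, and peaks within 10 kb of a member or among the 5 highest folds per list and window. Members, gene lists and windows were chosen with earlier results of these data known, and promoter windows, composition, motifs and the depth scaling were added after the data were examined.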

Additional observations from a re-analysis of the deposited data

How the results depend on the processing

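The lower CKO mean in both windows kept its direction with flanks of 50 or 200 kb, with peaks of a −log10 q-value from 5 upward, per 100000 listed peaks and with 1 count per interval. These settings recount the lists of control 1 and Bmal1 CKO 2, the only ones with peaks here, so they do not check a direction between genotypes. No exact permutation p fell below 0.80 under any alternative. With at most 1 long list in each group, these p-values follow mainly from that arrangement and bear on neither difference nor likeness. Leaving out single libraries gave differences from −8.33 to 5.67 at Dio1 and from −5.83 to 2.67 at Dio3. Leaving out a long list took the mean of its group to 0, and leaving out a short list raised the mean of its group. Without both long lists the difference was 0 in each window, and it was 0 at Dio3 with long lists of equal length. With the replicate number as a block the differences stayed at −2.67 and −3.00, with an exact permutation p of 1.0 (smallest possible 0.25). Over gene windows the deviations of same-numbered libraries correlated by −0.707, −0.803 and 0.737. These signs follow which lists are long: numbers 1 and 2 each join a long and a short list, and number 3 joins short ones. They therefore cannot show whether the replicate numbers pair the libraries. Recurrence of control 1 peaks around Dio1 ran from 20% (summits within 200 bp) to 40% (a −log10 q-value of at least 5 in both lists, or long lists of equal length). With Bmal1 CKO 2 peaks as denominator, which gives a share of that list instead, it was 47.1%. Around Dio3 it was 50% with that denominator and 0 (0 of 3 peaks) when both lists were held to that q-value; the cause was not tested. The highest end fold in control 1 was the same within 5 kb of an end for both genes and within 500 bp for Dio1, while Dio3 had no summit within 500 bp, its peak's summit lying at 517 bp.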
